A study of Mus musculus with 2 samples.

Results

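The keratin genes are the intermediate filament genes whose symbol is Krt followed by a number, with or without 1 letter. The symbol pattern matched 53 of the 32285 genes counted in the study, 28 of type I and 25 of type II, and used no measured value. Of them 27 lay on chromosome 11 and 26 on chromosome 15 of mm10, where Krt18 was the 1 type I gene among the type II genes. Krt74 and Krt85 were not analysed here.

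The data were 2 droplet libraries of single cells from the soft tissue behind the tibia of mice, labelled as Achilles tendon. The injured library came from the limb that had undergone burn and tenotomy, and the uninjured library from the opposite limb, from male and female mice operated on at 8 to 12 weeks of age, with 5 mice per group in the study's plan. The study's text places collection 7 days after the operation; the label of the uninjured library itself names no day. The mice of both libraries were heterozygous for CreERT2 at Hoxa11 (wt/CreERT2) and for a floxed-stop rtTA at R26 (wt/LSL-rtTA), and carried TetO-Vegfd. In this system a tamoxifen-dependent Cre made from the Hoxa11 locus, which is active in limb mesenchyme, switches on the doxycycline-dependent activator rtTA, which drives Vegfd. Neither library lacked the transgenes. The sources used here do not say whether a library pooled mice or how the inducing drugs were given. There was 1 library per limb, so no difference below has a replicate check, and every interval covers counting error only.

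Keratins assemble in pairs of 1 type I and 1 type II protein into the filaments that stiffen epithelial cells, and desmosomes and hemidesmosomes anchor those filaments. Each layer of skin has its own pairs: Krt5 and Krt14 in the basal layer, Krt1 and Krt10 above it, Krt6a, Krt6b, Krt16 and Krt17 in hair follicles and in the epidermis beside a wound, and many others in the sheaths and shaft of the hair. Simple epithelia use Krt8, Krt18, Krt7, Krt19 and Krt20 instead.

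Start sites are shown for 6 members whose levels the results turn on: a basal keratin, a suprabasal keratin, 3 keratins of the hair follicle that were high in the same group of cells, and Krt20, which was found in blood vessels. Each line holds the RefSeq window of 300 bases, from 250 before the start to 50 after it, in GRCm38.p6, read 5′ to 3′ on the gene's strand, with matches to 4 searched motifs in capitals.
Krt5, chr15:101712856-101713155, minus strand: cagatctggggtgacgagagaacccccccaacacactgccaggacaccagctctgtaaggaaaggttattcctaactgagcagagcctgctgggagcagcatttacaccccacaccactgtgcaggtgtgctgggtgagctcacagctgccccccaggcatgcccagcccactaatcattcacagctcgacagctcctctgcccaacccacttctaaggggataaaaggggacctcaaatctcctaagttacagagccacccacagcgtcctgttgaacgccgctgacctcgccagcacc
Krt10, chr11:99389315-99389614, minus strand: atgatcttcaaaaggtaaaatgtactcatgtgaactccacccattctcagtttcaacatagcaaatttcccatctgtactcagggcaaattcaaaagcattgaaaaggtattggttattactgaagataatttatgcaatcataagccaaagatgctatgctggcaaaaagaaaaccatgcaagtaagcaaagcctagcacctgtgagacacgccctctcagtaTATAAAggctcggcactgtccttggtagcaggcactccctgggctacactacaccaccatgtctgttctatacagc
Krt20, chr11:99438104-99438403, minus strand: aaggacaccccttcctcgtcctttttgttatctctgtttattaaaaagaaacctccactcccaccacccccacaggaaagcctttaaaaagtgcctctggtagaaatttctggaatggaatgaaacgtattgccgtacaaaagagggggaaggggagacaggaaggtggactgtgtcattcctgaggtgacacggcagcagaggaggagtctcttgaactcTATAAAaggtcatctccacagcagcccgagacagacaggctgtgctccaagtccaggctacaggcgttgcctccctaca
Krt25, chr11:99322902-99323201, minus strand: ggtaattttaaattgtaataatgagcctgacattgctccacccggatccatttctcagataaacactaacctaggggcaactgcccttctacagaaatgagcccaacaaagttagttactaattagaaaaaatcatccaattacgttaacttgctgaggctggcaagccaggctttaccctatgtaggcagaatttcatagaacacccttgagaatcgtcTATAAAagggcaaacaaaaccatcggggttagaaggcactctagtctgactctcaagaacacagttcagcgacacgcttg
Krt28, chr11:99374854-99375153, minus strand: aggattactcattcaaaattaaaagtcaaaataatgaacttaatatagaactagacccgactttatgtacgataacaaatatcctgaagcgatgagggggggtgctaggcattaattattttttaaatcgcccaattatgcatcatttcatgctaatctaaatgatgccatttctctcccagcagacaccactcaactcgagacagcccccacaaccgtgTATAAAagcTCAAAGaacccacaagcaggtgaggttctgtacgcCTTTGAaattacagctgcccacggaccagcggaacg
Krt71, chr15:101743048-101743347, minus strand: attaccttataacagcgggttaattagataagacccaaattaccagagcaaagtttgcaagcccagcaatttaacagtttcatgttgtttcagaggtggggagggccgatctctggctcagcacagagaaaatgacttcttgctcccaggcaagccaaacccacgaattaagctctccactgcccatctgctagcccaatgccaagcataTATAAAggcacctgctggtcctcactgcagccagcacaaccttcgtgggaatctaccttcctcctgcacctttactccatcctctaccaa
The capitals mark the TATA box letters TATAAA and, in Krt28, also CTTTGA, a LEF/TCF motif, or its reverse complement. The TATA box match began 26 bases before the start in Krt10, 29 in Krt20, 30 in Krt25 and in Krt28, and 40 in Krt71, while the window of Krt5 held no match. RefSeq windows were found for 36 of the 53 members. All motifs were searched on both strands. TATAAA or its reverse complement stood in 19 of their 37 windows and in 13.6% of the 32851 windows of all genes, and TATAAA on the gene's own strand in 17 windows and in 8.32% of all. The other motifs were CTTTGA in 9 of the 37 windows against 16.0% of all, GCCNNNGGC (AP-2) in 7 against 16.6%, and TGANTCA (AP-1) in 2 against 7.81%. A match is a run of letters and says nothing of a bound factor. The RefSeq start of Krt14 lay 1518 bases inside its gene model, so its window is not shown.

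The injured library held 10691 barcodes with 253050820 unique molecular identifiers (UMIs, which count each captured transcript once), and the uninjured library 6850 barcodes with 101685524. After filters on genes, mitochondrial share and doublet score, 9151 and 4700 cells remained, with a median of 17492 and 15771.5 UMIs. The labelled tissue was checked against its markers, and the tendon gene Tnmd stood at 116 UMIs per 1000000 UMIs of the library (CPM) in the injured and 229 in the uninjured library. Cells that held Xist but no Y-linked transcript numbered 3563 and 2404, and cells with the reverse 3481 and 1520, so each library held cells of both sexes. The libraries shared 19 barcodes, 8 of them among the kept cells.

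Keratinocyte-like cells were found in the injured library alone. They were named from 15 markers that included no keratin, and keratins were also left out of the clustering, so that keratin levels in them were not fixed by the naming. They numbered 305 of 9151 injured cells, 3.33% (exact 95% interval 2.97 to 3.72%), and 0 of 4700 uninjured cells, which allows a share of up to 0.0638%. Over all deposited barcodes, before any filter, Krt14 had 132013 UMIs in the injured library and 0 in the uninjured one.

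In all, 27 of the 53 keratins reached 10 UMIs in the keratinocyte-like cells, and 29 reached 50 UMIs over both libraries. Keratins made up 3.53% of all UMIs of the keratinocyte-like cells, and Krt14, Krt1 and Krt10 together 57.8% of the keratin UMIs. The other 24 members had at most 35 UMIs each over both libraries, and Krt34 and Krt40, both hair shaft keratins, had 0. Of the lists, all 3 basal and all 4 wound-induced keratins were detected in the keratinocyte-like cells, as were 3 of 4 suprabasal, 7 of 9 hair sheath, companion layer and infundibulum, and 3 of 15 hair shaft keratins. Simple epithelial keratins were detected in 2 of 5 cases, mucosal in 1 of 4 and the remaining listed keratins in 4 of 8. Krt2, which marks the upper layers of thick epidermis, had 1 UMI over both libraries. Krt88 stood in no list and had 4.

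The 305 cells fell into 8 sub-clusters, again made without keratins. Sub-cluster 5 (17 cells) was basal-like, and its leading genes included Col17a1 and Itga6, which attach basal cells to the basement membrane. Sub-clusters 2 (65 cells) and 6 (16 cells) were suprabasal-like; the leading genes of sub-cluster 2 included the antimicrobial and alarm genes Defb6, Stfa1, S100a8 and S100a9, and those of sub-cluster 6 the barrier genes Flg, Lor and Klk7. S100a8 and S100a9 also mark neutrophils, and they summed to 3140 CPM in sub-cluster 2 against 66905 in neutrophils, where the other neutrophil markers summed to 6748 against 17.3 in sub-cluster 2. Sub-clusters 1 (76 cells, with Lhx2, Lgr5, Ptch1 and cell cycle genes) and 3 (56 cells, with Sema3e, Cxcl14 and Sfrp1) were hair follicle-like. Sub-cluster 3 scored highest on the hair list but also scored 0.916 on the basal list, with 12 of 12 basal markers detected. It held Col17a1 at 934 CPM against 1757 in sub-cluster 5, and the basal gene Trp63 at 1044 against 611. Its name therefore does not exclude a basal character. Sub-cluster 4 (47 cells, with Igfbp3 and Ccl27a) scored 0.42 on both the basal and the hair list. It stayed unnamed because its leading genes held more markers of another state list than of the basal list. On the cycling list it scored 1.97, with 12 of 12 markers detected, against 2.67 for sub-cluster 1. Sub-clusters 7 (15 cells) and 8 (13 cells) also stayed unnamed, because genes of fibroblasts (Col1a1, 9757 CPM in sub-cluster 7 against 252 in sub-cluster 2) and of macrophages (Lyz2, 1623 in sub-cluster 8 against 82.5) led them. Col1a1 also stood at 1841 CPM in the suprabasal-like sub-cluster 6, whose leading genes included no fibroblast marker. The median depth was 86806 UMIs a cell in sub-cluster 7 and 29496 over the class. The part of mixed droplets or free RNA in the keratin levels of sub-clusters 6, 7 and 8 was not tested.

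The sexes were unevenly spread over the sub-clusters. Cells that held Xist but no Y-linked transcript numbered 65 against 4 with the reverse in sub-cluster 1 and 41 against 11 in sub-cluster 3. In sub-cluster 2 they numbered 16 against 38, in sub-cluster 5 they numbered 3 against 11, and in sub-cluster 6 they numbered 1 against 8. The part of sex, or of the mouse of origin, in the keratin differences between sub-clusters was not tested beyond the values given with the basal and suprabasal comparison.

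**Figure D1:**
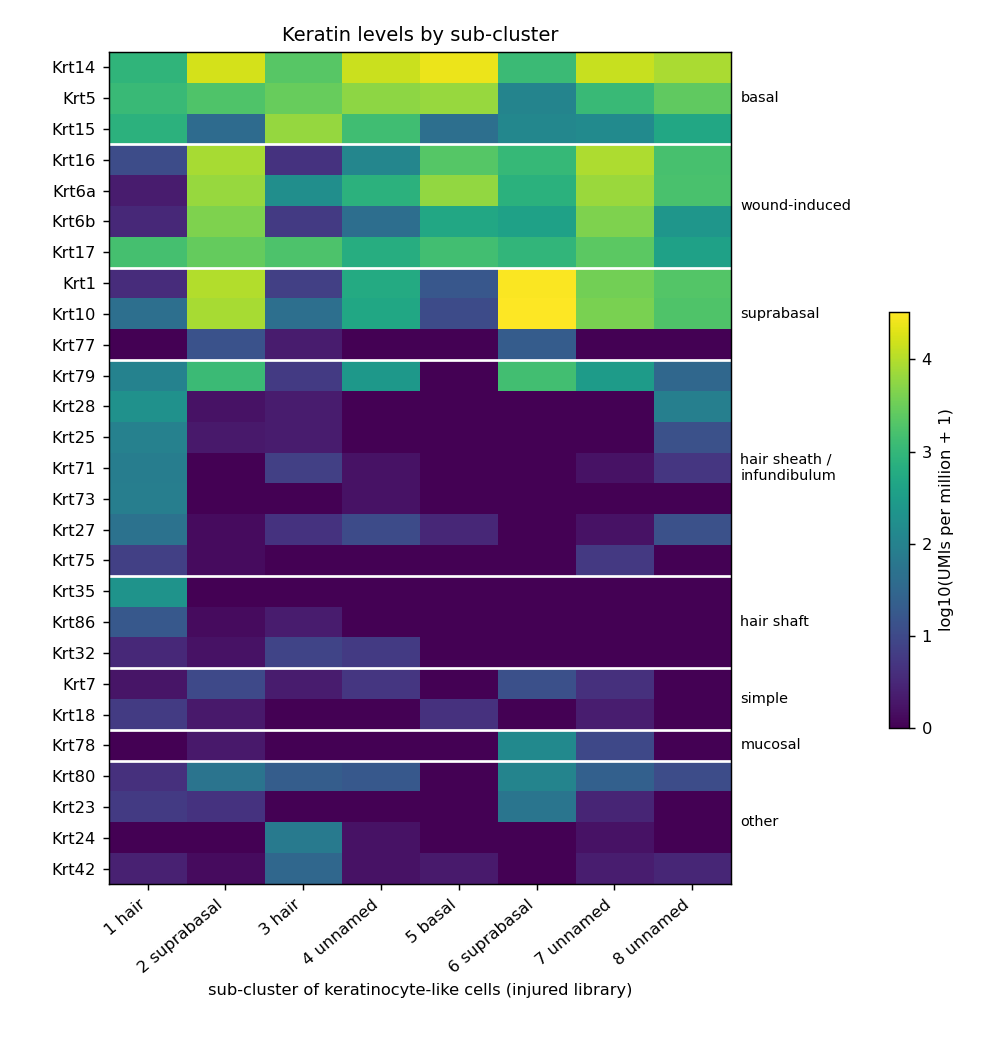
Heat map of log10(CPM + 1), summed over the cells of each of the 8 sub-clusters (columns), for the 27 keratins with 10 or more UMIs in keratinocyte-like cells (rows, grouped by list). Krt1 and Krt10 are brightest in sub-cluster 6, Krt14 in sub-cluster 5, Krt15 in sub-cluster 3, and Krt25, Krt27, Krt28, Krt71, Krt73 and Krt35 in sub-cluster 1.

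Krt14 and Krt5, the basal layer pair, were the first and sixth most abundant keratins of the class, at 10782 CPM (10721 to 10842) and 2469 (2440 to 2498). Both were highest in the basal-like sub-cluster 5, where Krt14 stood at 24494 and Krt5 at 6618 CPM. There each of the 17 cells held both genes, with Krt14 between 2759 and 39991 and a median of 24731. The next highest were sub-cluster 2 for Krt14 (16441) and the unnamed sub-cluster 4 for Krt5 (5566). The hair follicle-like sub-clusters 1 and 3 had Krt14 at 905 and 2241, and the suprabasal-like sub-cluster 6 had Krt5 at 109.

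The pair did not keep a fixed ratio. Krt14 had 4.37 UMIs for each Krt5 UMI over the class (4.31 to 4.42) and 3.70 (3.60 to 3.81) in basal-like cells. In the hair follicle-like sub-clusters the ratio was below 1, at 0.795 (0.752 to 0.840) and 0.769 (0.723 to 0.818). It was 8.94 (8.69 to 9.19) in sub-cluster 2 and 10.99 (8.55 to 14.3) in sub-cluster 6. After thinning each cell to 5000 UMIs, which left 293 of the 305 cells, Krt14 and Krt5 had a Spearman correlation of 0.63 over cells, which share 1 library and are no replicates.

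Krt15, a basal keratin known from the hair follicle bulge, followed a different pattern from Krt14. It stood at 6337 CPM (6165 to 6512) in the hair follicle-like sub-cluster 3, where 55 of 56 cells held it at a median of 6170, and at 1339 in sub-cluster 4 and 797 in sub-cluster 1. In the basal-like sub-cluster 5 it was at 43.2, from 39 UMIs in 1 of 17 cells. Thinned to 5000 UMIs, Krt15 was seen in 52 of 53 cells of sub-cluster 3 and in 1 of 17 of sub-cluster 5. Sub-cluster 3 was thus the group with high Krt15 and low Krt14, and sub-cluster 5 the reverse. Krt24, a type I keratin, was almost confined to the same group among keratinocyte-like cells: 56 of its 58 UMIs there lay in 12 cells of sub-cluster 3, at 68.5 CPM (51.8 to 89.0). Krt42, chosen for mention after its values were seen, was also highest in sub-cluster 3, at 30.6.

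Krt1 and Krt10, the pair that replaces Krt5 and Krt14 when cells leave the basal layer, were nearly absent from basal-like cells. In the suprabasal-like sub-cluster 6 Krt1 stood at 30471 CPM (30035 to 30911) and Krt10 at 32726 (32274 to 33182), in sub-cluster 2 at 9890 and 8443, and in the basal-like sub-cluster 5 at 15.5 and 10.0. Single cells of sub-cluster 2 ranged from 0 to 72438 for Krt1 with a median of 3343, so this group held cells with and without it. The pair stayed close to equal, with 1.07 Krt10 UMIs for each Krt1 UMI in sub-cluster 6 (1.05 to 1.10) and 0.854 in sub-cluster 2 (0.839 to 0.868), and correlated at 0.73 over the thinned cells. Krt10 was also read at 44.2 and 42.8 CPM in the hair follicle-like sub-clusters, where Krt1 stood at 2.76 and 6.12. Krt77, another suprabasal keratin, had 51 of its 52 keratinocyte-like UMIs in suprabasal-like cells, at 12.98 in sub-cluster 2 and 19.6 in sub-cluster 6.

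Krt78, Krt23 and Krt80 accompanied Krt1 and Krt10 in sub-cluster 6, the group with Flg and Lor. Krt78, listed with the mucosal keratins, stood at 140 CPM there (112 to 173), with 86 of its 102 keratinocyte-like UMIs in 7 of the 16 cells, and at 0.998 in sub-cluster 2. Krt23 stood at 55.5 in sub-cluster 6. Krt80, a type II keratin linked to differentiating cells, stood at 108 (83.3 to 137) in sub-cluster 6, 53.3 in sub-cluster 2 and 0 of 903737 UMIs in sub-cluster 5.

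**Figure D2:**
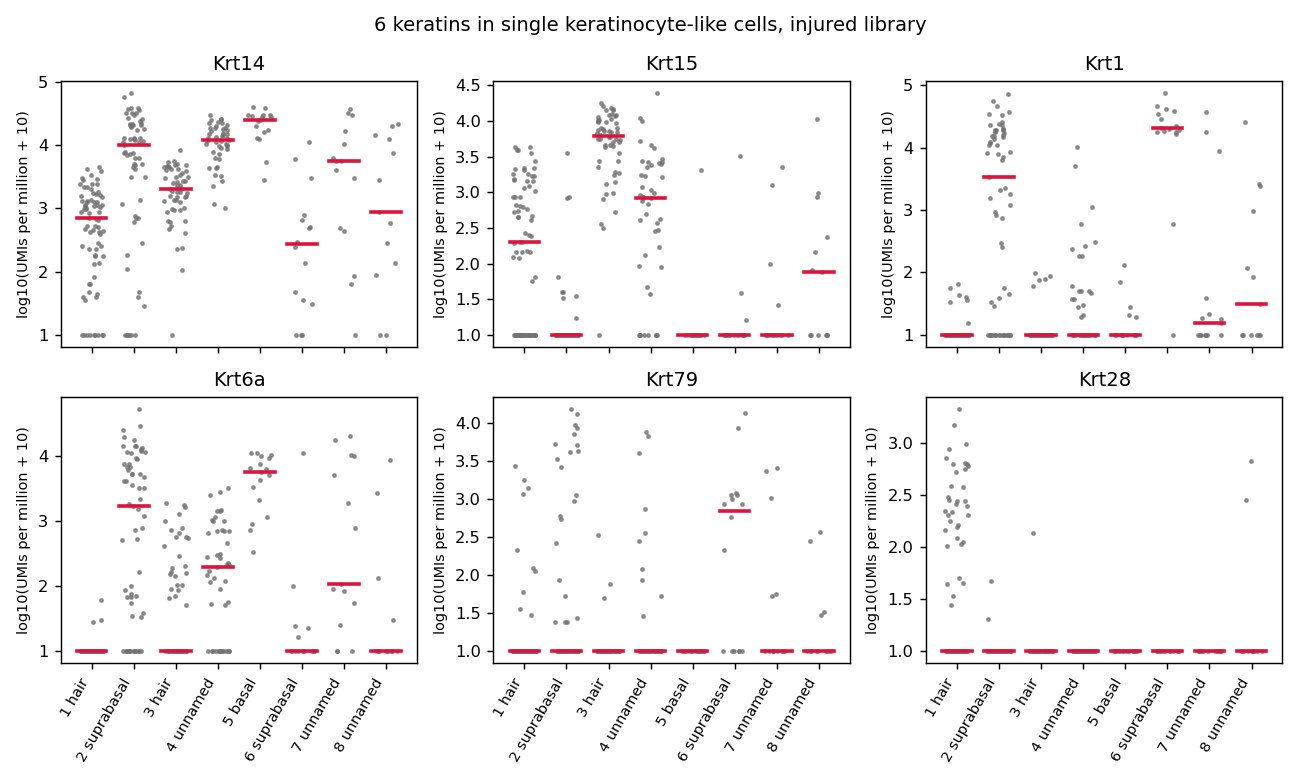
Single-cell levels, log10(CPM + 10), of 6 keratins in the 305 keratinocyte-like cells by sub-cluster; each point is a cell and the red line is the median. Krt15 is high in sub-cluster 3, Krt1 in sub-clusters 2 and 6, and Krt28 in part of the cells of sub-cluster 1, while Krt6a and Krt79 split sub-cluster 2 into cells with and without them.

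The wound-induced keratins did not form a single set. Krt16 (3832 CPM over the class) and Krt6b (1826) stood above their class level in sub-clusters 2 and 7, and Krt6a (3358) in sub-clusters 2, 5 and 7. Krt17 (1808) was spread over every sub-cluster, from 386 in sub-cluster 8 to 2854 in sub-cluster 2. Krt6a stood at 6049 (5890 to 6212, in 17 of 17 cells) in the basal-like sub-cluster 5, a little below the 6562 (6471 to 6654, in 50 of 65 cells) of the suprabasal-like sub-cluster 2. The hair follicle-like sub-cluster 1 had Krt6a at 1.18, from 3 UMIs, with Krt17 at 1500, and sub-cluster 3 had Krt6a at 166 with Krt17 at 1809. Krt17 and Krt6a had a Spearman correlation of 0.12 over all thinned cells and of 0.61 within sub-cluster 2.

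The ratios of the other wound-induced keratins to Krt6a differed between sub-clusters. For each Krt6a UMI, Krt16 had 0.355 UMIs (0.337 to 0.374) in basal-like sub-cluster 5 and 1.30 (1.28 to 1.33) in sub-cluster 2. Krt6b had 0.0825 (0.0748 to 0.0908) in sub-cluster 5 and 0.660 (0.646 to 0.675) in sub-cluster 2. In sub-cluster 4, with Krt6a at 805 CPM, the ratios were 0.145 for Krt16 and 0.0519 for Krt6b. For Krt17 the ratio was 0.793 (0.726 to 0.864) in sub-cluster 4, 0.230 (0.216 to 0.245) in sub-cluster 5 and 0.435 (0.424 to 0.446) in sub-cluster 2. The last 500 bases of the Krt6a and Krt6b transcripts shared no run of 50 bases, whereas 9.53% of such runs in Krt14 were shared with Krt17 and 1.33% of those in Krt16 with Krt14.

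Sub-cluster 2 held 2 groups of cells when the clustering was made finer, at a resolution of 1.2 in place of 0.8. The first, 44 cells, all from sub-cluster 2 and unnamed at that setting, was led by Defb6, Scd1 and Mgst1 and had Krt79 at 2089, Krt1 at 12792, Krt6a at 1673 and Krt16 at 1181 CPM. The second, 31 cells of which 21 came from sub-cluster 2, was led by S100a9, S100a8, Sprr1b and Gjb2 and had Krt14 at 24801, Krt16 at 16233, Krt6a at 11501 and Krt6b at 8094, with Krt1 at 4702 and Krt79 at 8.30. High Krt79 and high Krt16 therefore lay in different groups of cells. In that second group 2 cells held Xist alone and 19 a Y-linked gene alone, against 16 and 23 in the first. The leading genes of the second group also included the macrophage gene Lyz2, and its levels include the cells from outside sub-cluster 2. Mgst1, a leading gene of the first, was also a marker of the sebocyte list. The part of mixed droplets in these levels was not tested.

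Krt79, a type II keratin known from the upper hair follicle canal and the sebaceous duct, stood at 493 CPM over the class (480 to 506). Its highest levels were in suprabasal-like sub-clusters 6 (1413) and 2 (1206), and it had 0 UMIs in basal-like cells, below 3.32 CPM at a limit of 3 UMIs. In sub-cluster 6, 2 of the 16 cells held 789 of the 866 Krt79 UMIs, and without them the level was 143. Single cells reached 15279 in sub-cluster 2, where 22 of 65 held it and the median was 0. Krt79 and Krt1 had a Spearman correlation of 0.01 over the thinned cells, although both were called higher in suprabasal-like cells. Thinned to 5000 UMIs, Krt79 was seen in 16 of 59 cells of sub-cluster 2 and in 1 of 53 of sub-cluster 3.

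Hair follicle keratins were concentrated in sub-cluster 1, and within it in few cells. The inner root sheath keratins form the layer that moulds the growing hair. Krt28 stood at 194 CPM in sub-cluster 1 (177 to 212), with 492 of its 538 keratinocyte-like UMIs there in 36 of 76 cells, and at 88.3 in sub-cluster 8, from 2 cells. Krt25 stood at 97.1, Krt73 at 84.4, Krt71 at 81.3 and Krt27 at 48.9 in sub-cluster 1. The 5 richest cells held 49.4% of the Krt28 UMIs, 58.1% of Krt27, 89.4% of Krt25, 93.7% of Krt71 and 94.4% of Krt73. Krt28 and Krt27 were thus spread over more cells than their 3 companions.

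Krt35, an early keratin of the hair shaft, had all 519 of its keratinocyte-like UMIs in sub-cluster 1, at 205 CPM (188 to 223), in 15 of 76 cells. In that sub-cluster 29 cells had 5 or more UMIs of Krt25, Krt27, Krt28, Krt71 and Krt73 summed, 11 had 5 or more of Krt35, and 10 had both. Those 10 cells held 507 of the 519 Krt35 UMIs, so shaft and sheath keratins were read mostly from the same barcodes. Krt86, a hair shaft keratin of type II, had 41 of its 43 UMIs there at 16.2 CPM. Krt75 and Krt32, chosen for mention after their values were seen, had 24 and 21 UMIs over the class. The finer clustering put these genes in 37 cells led by Bach2, Sox5, Cux1 and Lef1, with Krt28 at 416, Krt35 at 460, Krt25 at 214 and Krt71 at 173. The other 40 cells, led by Adamtsl1, Ptch1, Lhx2 and Lgr5, had Krt28 at 16.5 and Krt35 at 1.38, and instead held more Krt17 (2139 against 619) and Krt15 (1409 against 76.5).

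Type I keratin UMIs exceeded type II UMIs in every sub-cluster. Over the class they stood at 1.68 to 1 (1.67 to 1.69), from 251438 and 149350 UMIs. The suprabasal-like sub-cluster 6, where the pair of Krt10 and Krt1 made most of the keratin, was closest to equal at 1.08 (1.06 to 1.10). The hair follicle-like sub-clusters were farthest from it, at 2.65 in sub-cluster 1 and 3.37 in sub-cluster 3. The median over the 303 cells with both types was 2.36, above the ratio of sums. Keratins took 6.95% of all UMIs in sub-cluster 6, 6.02% in sub-cluster 2, 4.13% in sub-cluster 5 and 0.526% in sub-cluster 1. UMIs count captured 3′ ends, and protein amounts were not measured.

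**Figure D3:**
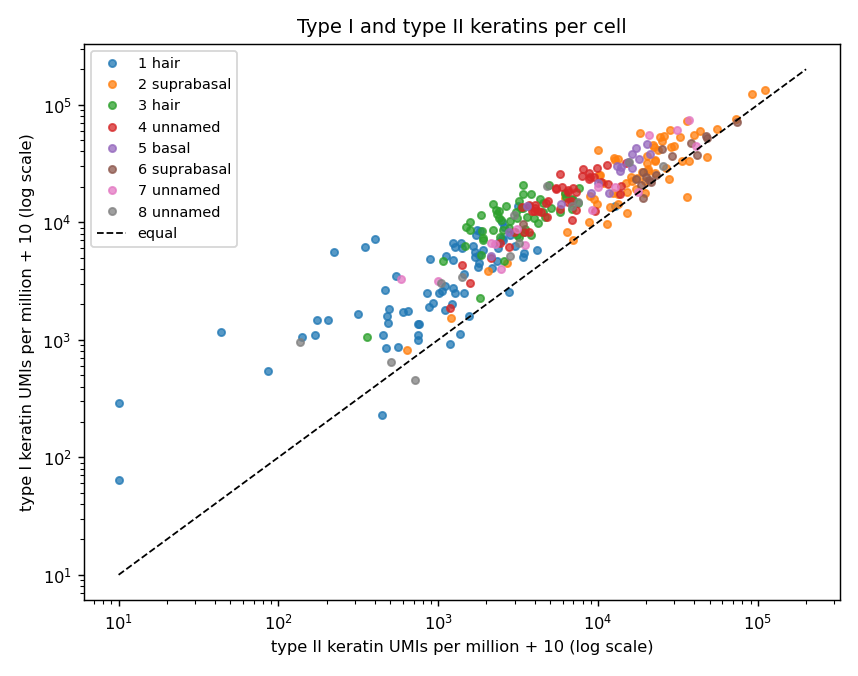
Type I against type II keratin level of each keratinocyte-like cell, in CPM + 10 on log scales, coloured by sub-cluster; the dashed line marks equal levels. Most cells lie above the line, and the distance from it is smallest for the keratin-rich suprabasal-like cells, with a ratio of 1.08 in sub-cluster 6.

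Summed by state, 13 keratins had 50 or more UMIs over the 17 basal-like and 81 suprabasal-like cells. Of them 1 was over 2-fold higher in basal-like cells, 8 were over 2-fold higher in suprabasal-like cells and 4 lay within 2-fold. Of all 7817 genes with that many UMIs, 27.3% were past 2-fold either way, 14.9% higher in basal-like and 12.4% in suprabasal-like cells. Krt77, Krt78, Krt79 and Krt80 had 0 UMIs in basal-like cells and passed the minimum only through the suprabasal-like cells, where they are high, so the counts describe these cells and are not read against the background. The lists of other genes below were filtered in the same way. The median log2 ratio of basal-like over suprabasal-like was 0.18 for all genes.

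The basal keratin was Krt5, at 6618 against 1546 CPM, 4.28-fold higher (4.13 to 4.44). Krt10 was 1261-fold (664 to 2758) and Krt1 863-fold (515 to 1580) higher in suprabasal-like cells, and Krt6b 7.34-fold (6.68 to 8.08). Krt79 was at least 374-fold, Krt80 at least 18.8-fold, Krt78 at least 7.41-fold and Krt77 at least 4.25-fold higher there, against a limit of 3 UMIs in basal-like cells. Krt16 was 3.38-fold higher (3.23 to 3.54), at 7273 against 2150. Within 2-fold lay Krt14 (24494 in basal-like against 13859), Krt6a (6049 against 5581), Krt17 (1392 against 2529) and Krt15 (43.2 against 51.4).

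Which cells were called suprabasal-like decided several of these values. Without sub-cluster 2, leaving the 16 cells of sub-cluster 6, Krt16 and Krt6b turned round: the log2 ratio of basal-like over suprabasal-like became 1.00 in place of -1.76 for Krt16 and 0.39 in place of -2.88 for Krt6b, and it became 4.35 in place of 0.82 for Krt14 and 2.97 in place of 0.12 for Krt6a. Krt15 went either way. Its log2 ratio was -0.25, and became 5.36 with a mitochondrial limit of 20%, 6.61 with no doublets removed and 2.25 with more doublets removed, runs in which 43 or 44 cells were called basal-like. It became -1.32 and -1.58, past 2-fold higher in suprabasal-like cells, at clustering resolutions of 0.5 and 1.2. Among cells that held Xist but no Y-linked transcript, 3 basal-like and 17 suprabasal-like, the log2 ratio was -0.04 for Krt16 and -0.28 for Krt14. Krt5 was higher in basal-like cells in every run, but the size of its difference was not fixed. Its log2 ratio was 2.10 and ranged from 1.56 to 5.92 over the alternative runs.

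The partners and anchors of keratin filaments were read in the same cells, from lists of which many members had also served to name the states. All 9 hemidesmosome genes tested were over 2-fold higher in basal-like cells, with a median log2 ratio of 4.22. As 7 of the 9 were naming markers, their direction was set in part by the naming and is not read against all genes. Col17a1 stood at 1757 against 28.5 CPM and Itga6 at 1592 against 85.7. Plec and Cd151, which were not naming markers but were not barred from the clustering, stood at 331 against 74.9 and 134 against 32.1. Plec encodes plectin, which links keratin filaments to the hemidesmosome.

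Desmosome genes, which tie keratin filaments to cell junctions, were split. Of 15 tested, 2 were over 2-fold higher in basal-like cells, 6 in suprabasal-like cells and 7 lay within 2-fold, with a median of -0.80, and 10 of the list's 16 members were naming markers. The tested members farthest apart in each direction were desmosomal cadherins. Dsg3 stood at 827 in basal-like against 284 in suprabasal-like cells and Dsg2 at 74.1 against 8.57, whereas Dsg1a stood at 4.43 against 524 and Dsc1 at 0 against 252. Dsg1a and Dsc1 were naming markers of the suprabasal state, and some other desmosomal cadherins lay within 2-fold. Perp, Dsp and Jup, the most abundant, lay within 2-fold, at 1464 against 2658, 1257 against 2189 and 713 against 968.

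All 16 cornified envelope genes tested, 10 of the list's 19 being naming markers, were higher in suprabasal-like cells, with a median of -7.06. Krtdap stood at 1207 against 7130, Sprr1b at 95.2 against 1255, Sprr2d at 14.4 against 75.7, and Flg and Flg2 at 0 against 2205 and 38.7. Of 15 keratinocyte transcription factors 7 were higher in suprabasal-like cells and 8 within 2-fold, with a median of -0.43, and 4 of the list's 16 members were naming markers. Trp63, the p63 gene that marks the basal layer, stood at 611 against 318 and Klf5 at 341 against 234. Klf4 stood at 168 against 540, Cebpb at 185 against 519, Cebpa at 7.75 against 112 and Gata3 at 22.1 against 101. Of 12 alarm and wound genes, with 1 naming marker among the list's 16, 4 were higher in basal-like cells and 5 in suprabasal-like cells, with a median of -0.54. Mmp9 (184 against 1.94) and Plaur (128 against 8.57) led the first and S100a8 (49.8 against 1470) and S100a9 (64.2 against 1201) the second, while Stfa1 stood at 750 against 1356. Of the other cytoplasmic intermediate filament genes only Vim (33.2 against 188) and Bfsp1 (25.4 against 12.2) had 50 UMIs. Synm, the third most abundant of that list, stood at 6.69 over the class.

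Outside the keratinocyte-like cells, the main skin keratins were present at a low level in every class of the injured library. Krt14 stood between 5.09 and 32.4 CPM in the injured classes of 50 or more cells and at 0 UMIs in every uninjured class. Summed Krt5 and Krt14 there were 0.0434 to 0.352% of their level in keratinocyte-like cells. That share, times a keratin's level in keratinocyte-like cells, was taken as the level that free RNA from broken cells would give it; mixed droplets were not told apart from free RNA. A keratin was called above it with 20 or more UMIs and the lower end of its interval over 3 times that level. By this rule 12 of the 53 members, or 12 of the 21 with 20 or more UMIs in such a class, were above the free RNA level in at least 1 of 13 injured classes: Krt7, Krt10, Krt12, Krt18, Krt19, Krt20, Krt23, Krt24, Krt39, Krt80, Krt83 and Krt222. Of all 18851 genes with 20 or more UMIs in such a class, 99.8% were above it, so passing the rule does not set a keratin apart from other genes. Of the 12 keratins, 6 had under 10 UMIs in keratinocyte-like cells, so their free RNA level was very low and little more than the UMI minimum was needed. In the uninjured library 8 members had 20 or more UMIs in at least 1 of 10 classes, and 7 of the 8 were among the 12.

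**Figure D4:**
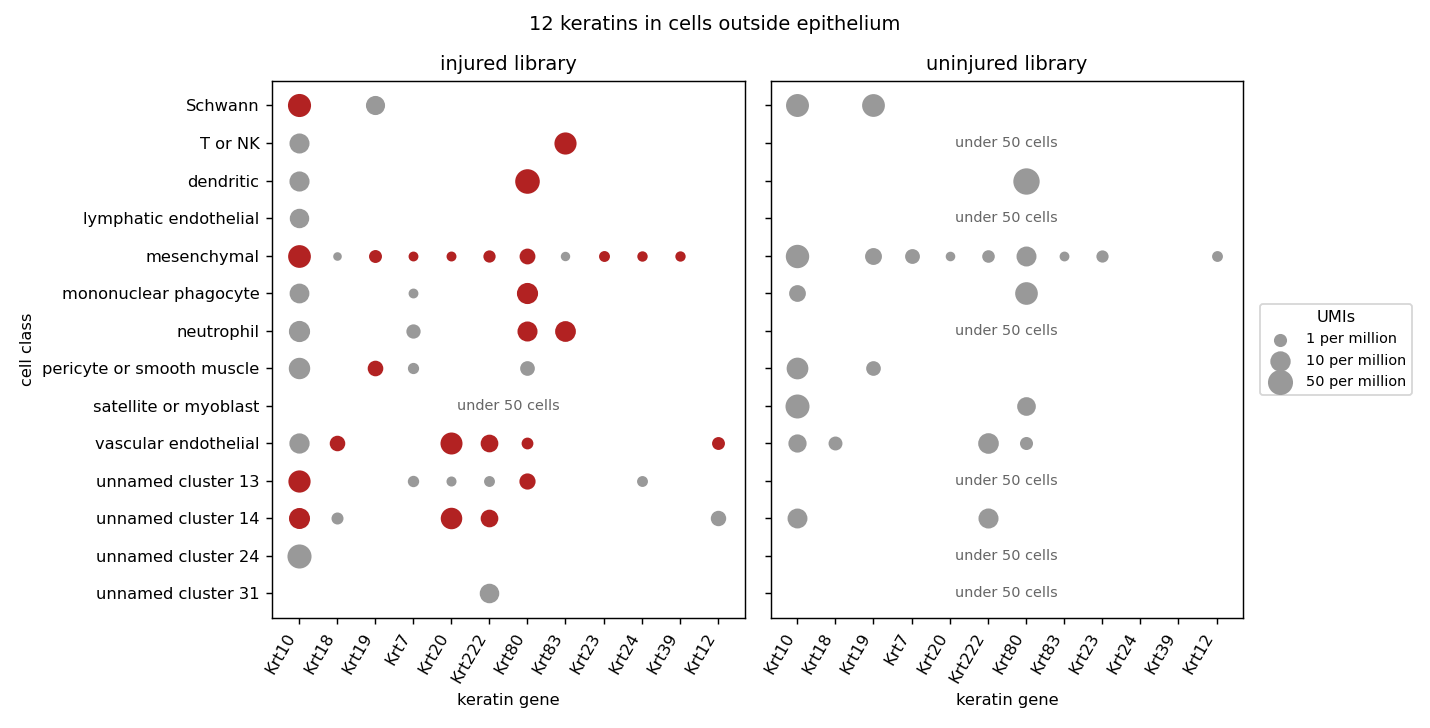
The 12 keratins above the free RNA level (columns) in cell classes outside epithelium (rows) of each library; point area grows with log10(CPM + 1), points are drawn from 5 UMIs up, and red marks a level above free RNA in the injured library. Krt20 is red in vascular endothelial cells, in cluster 14 and, as a small point, in mesenchymal cells, and the first 2 of these classes have no Krt20 point in the uninjured library.

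Krt20, a type I keratin known from gut epithelium, urothelium and Merkel cells (chr11:99428403-99438150 in mm10), was read from blood vessel cells of the injured limb. It had 839 UMIs in the injured and 11 in the uninjured library, 28.3-fold higher in CPM (15.7 to 56.9), and 0 of 11361457 UMIs in the keratinocyte-like cells. Vascular endothelial cells held 701 of the 839, at 17.1 CPM (15.9 to 18.4), against 0 UMIs in 1624 uninjured vascular endothelial cells, at least 176-fold higher. The unnamed cluster 14, led by the pericyte gene Rgs5 and the capillary genes Fabp4 and Cd36, held a further 108 UMIs, at 14.5 CPM against 0.136 in the uninjured library. In injured mesenchymal cells, the third class above the free RNA level, it stood at 0.233 from 21 UMIs.

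In single cells Krt20 was seen in 18.2% of injured vascular endothelial cells. After thinning to 5000 UMIs, with 95 injured and 182 uninjured shallower cells left out, it was seen in 68 of 1109 (6.13%, 4.79 to 7.71%). It was seen in 0 of 1442 uninjured cells, which allows up to 0.208%, in 1 of 2409 injured phagocytes (0.0415%), and Krt14, on which the free RNA level rests, in 4.60% of the injured vascular cells. The median depths before thinning were 24676.5 and 14409.5 UMIs.

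The level followed the kind of vessel. Cluster 9, led by the venule genes Selp and Ackr1, stood at 28.1 (24.6 to 32.0) in the injured library, and cluster 8, led by Plvap and Aplnr, at 17.8 (15.9 to 19.8). The cycling cluster 22 stood at 12.4 (10.3 to 14.7) and the capillary cluster 1, led by Timp4, Cd36 and Gpihbp1, at 2.79 (0.907 to 6.52), from 5 UMIs. The arterial cluster 23, led by Sema3g and Sox17, had 0 UMIs in 62 cells. All 5 clusters had 0 UMIs in the uninjured library, so that Krt20 was at least 34.0-fold higher in injured cluster 9, 19.0-fold in cluster 1, 11.7-fold in cluster 22 and 4.83-fold in cluster 8. Cluster 8 had 510 injured and 55 uninjured cells, which limits its bound. The cell with most Krt20 held 49 UMIs, and 104 of the 510 injured cells of cluster 8 held any.

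**Figure D5:**
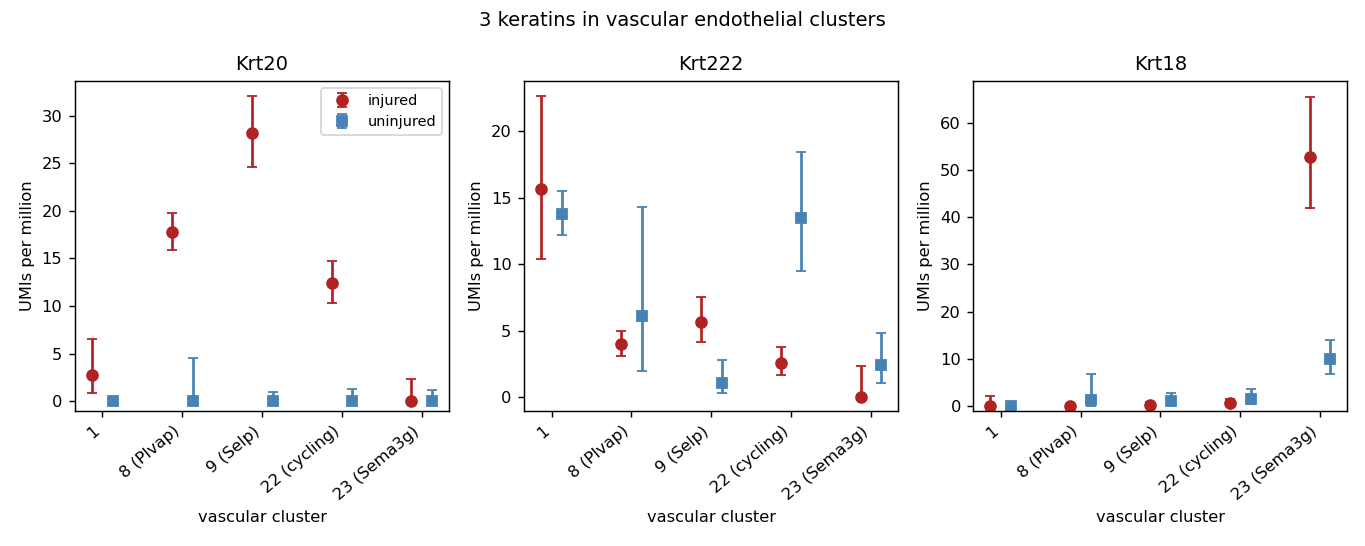
Levels of 3 keratins, in CPM with exact Poisson 95% intervals, in the 5 vascular endothelial clusters of the injured (red circles) and uninjured (blue squares) library. Krt20 is at 0 in every uninjured cluster and highest in injured cluster 9 at 28.1, Krt222 is highest in cluster 1 of both libraries, and Krt18 is high only in the arterial cluster 23, at 52.8 and 9.87.

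Krt222, a keratin-like type I gene, was also read from vessels but with the opposite order of the libraries. It stood at 4.32 CPM (3.71 to 5.01) in injured and 10.9 (9.74 to 12.1) in uninjured vascular endothelial cells, 2.51-fold higher in the latter (2.09 to 3.03). In the capillary cluster 1 the libraries did not differ beyond counting error, at 15.7 (10.4 to 22.6) and 13.8 (12.2 to 15.5). That cluster held 118 injured and 1136 uninjured cells, and the part of cell composition in the class difference was not tested. In the cycling cluster 22 Krt222 was 5.18-fold higher in the uninjured library (3.08 to 8.83), and in the venular cluster 9 it was 5.13-fold higher in the injured one (1.87 to 19.6).

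Krt18, a simple epithelial keratin that pairs with Krt8, was nearly confined to the arterial cluster among vascular cells. In cluster 23 it stood at 52.8 CPM (42.01 to 65.6) in injured cells and at 9.87 (6.75 to 13.9) in uninjured ones, 5.35-fold higher (3.52 to 8.33). The injured value came from 82 UMIs in 9 of 62 cells, 28 of them in 1 cell, and the uninjured value from 32 UMIs in 18 of 178 cells. The other 4 vascular clusters had at most 1.42 CPM. Its partner Krt8 had 27 UMIs in the whole injured library. Krt12, known from the corneal epithelium, was above the free RNA level in injured vascular cells at 0.929 (0.657 to 1.27), from 38 UMIs, and its gene overlaps another annotated gene.

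Krt80, highest in dendritic cells among the classes of 50 or more cells, was above the free RNA level in 6 injured classes. Its gene overlaps other annotated genes, Gm35853 and Mir1941. Krt80 stood at 42.1 CPM (35.9 to 49.1) in injured and at 82.4 (70.7 to 95.6) in uninjured dendritic cells. Over all keratinocyte-like cells it stood at 27.8, and in the suprabasal-like ones alone at 62.5. In mononuclear phagocytes it stood at 12.8 and 21.3, and within them the monocyte cluster 18 reached 44.8 in 295 injured cells and 137 in 15 uninjured cells, 16 of whose 27 UMIs lay in 1 cell. In mesenchymal cells it stood at 2.45 and 8.76, with 30.2 in the uninjured fibroblasts of cluster 21, led by Clec3b and Pi16, and 16.2 in the same cluster of the injured library. Summed by class, uninjured cells held more Krt80 in each of these 3 classes, by 1.96-fold (1.57 to 2.44) in dendritic, 1.66-fold (1.36 to 2.02) in phagocyte and 3.57-fold (2.97 to 4.31) in mesenchymal cells. Cluster 21 held 52 injured and 235 uninjured cells, and the part of cell composition in these class differences was not tested. Krt83, a hair shaft keratin by name, had 5 UMIs in keratinocyte-like cells and was instead read in injured T or NK cells, at 17.9 (12.7 to 24.6), and neutrophils, at 11.3 (8.47 to 14.8). Thinned to 5000 UMIs, it was seen in 12 of 179 T or NK cells and in 0 of 2409 phagocytes, while Krt14, on which the free RNA level rests, was seen in 13 and 169 of the same cells.

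Krt10, unlike its partner Krt1, was read in connective tissue of both libraries. Outside keratinocyte-like cells it stood at 15.6 CPM in the injured and 14.6 in the uninjured library, a ratio of 1.07 (0.999 to 1.14), whereas Krt1 stood at 4.46 and 0.0339. In mesenchymal cells Krt10 stood at 21.9 (20.9 to 22.8) and 27.5 (25.6 to 29.6), in Schwann cells at 24.8 and 23.5, and in uninjured satellite or myoblast cells at 34.2 (29.3 to 39.6). It passed the free RNA rule in 4 injured classes. The gene overlaps another annotated gene, Gm11940, and reads of the pair may not be told apart.

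Krt19 and Krt7 were at low levels and higher in the uninjured library outside keratinocyte-like cells, while Krt23 did not differ beyond counting error. Krt19, a simple epithelial keratin, had 172 injured and 266 uninjured UMIs, 4.09-fold higher in CPM in the uninjured library outside keratinocyte-like cells (3.36 to 5.00). Its highest level was in the unnamed cluster 36, led by Sfrp5, Cldn1 and Itgb4, at 180 (131 to 243) in 11 injured cells and 336 (280 to 399) in 22 uninjured cells. In uninjured Schwann cells it stood at 22.1, with 14 of the 34 UMIs in 1 cell. Krt7 stood at 1.77 in uninjured and 0.222 in injured mesenchymal cells, 8.00-fold higher (4.67 to 14.2), with 17 of the 49 UMIs in 1 cell. Krt23 stood at 0.724 and 0.411 in the same cells, a ratio of 1.76 (0.970 to 3.12). Cluster 36 made up 0.120% of injured and 0.468% of uninjured cells. The part of cell composition in the Krt19 and Krt7 differences was not tested. The Krt7 gene overlaps another annotated gene, Gm671.

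A few rare members, chosen for mention after their values were seen, were tied to 1 cluster. Krt24 had 27 UMIs and Krt39 23 UMIs in cluster 6 of the injured library, mesenchymal cells led by Cthrc1 and Tnc, with 19 of the 23 in 1 cell for Krt39. Krt4, a keratin of the oesophagus, had 20 of its 21 injured UMIs in the 33 mast cells of cluster 35, at 90.4 CPM (55.2 to 140). Krt33a, a hair shaft keratin, had all 11 of its uninjured UMIs in satellite or myoblast cells.

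With all kept cells summed, 29 keratins had 50 or more UMIs over both libraries. On a scale of CPM plus 5, 10 of the 29 were over 2-fold higher in the injured library and 0 in the uninjured library: Krt1, Krt5, Krt6a, Krt6b, Krt10, Krt14, Krt15, Krt16, Krt17 and Krt79. Of all 19563 genes with that many UMIs, 6.47% were past 2-fold either way, 2.86% higher in the injured library and 3.6% in the uninjured. The median log2 ratio was 0.24 for the 29 keratins and -0.01 for all genes. Krt5, Krt6a, Krt6b, Krt14, Krt16 and Krt17 had 0 UMIs in the uninjured library, and Krt1 and Krt15 had 3 each. These genes passed the minimum only through the injured library, where they are high. The counts and the median of the keratins therefore describe these libraries and are not read against all genes. Krt14 stood at 526 CPM against 0 UMIs, Krt10 at 238 against 14.6, Krt1 at 238 against 0.0339, Krt16 at 186 against 0, Krt6a at 163 against 0 and Krt5 at 120 against 0. Krt6b stood at 88.3, Krt17 at 87.6, Krt15 at 42.6 and Krt79 at 24.4, the last against 0.813.

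The difference moved with the keratinocyte-like cells. They held 97.5% of the Krt14, 98.2% of the Krt1, 93.8% of the Krt10 and 95.9% of the Krt79 UMIs of the injured library. Without them, 1 of 19 keratins with 50 UMIs, Krt14, was past 2-fold on the scale with 5 added, at 13.5 against 0. With nothing added, Krt1 was still 132-fold higher in the injured library (44.97 to 640.2), Krt16 at least 116-fold, Krt6a at least 96.6-fold, Krt5 at least 87.6-fold, Krt15 42.4-fold (14.4 to 207) and Krt20 29.7-fold (16.5 to 59.7). Of these, only Krt20 was called above the free RNA level in any injured class, in 3 of them. It had 0 UMIs in keratinocyte-like cells, so its free RNA level was 0 and 20 UMIs in a class were enough. Krt5 and Krt14 themselves set the level, and Krt14 was above it in none. The rule therefore cannot set Krt20 apart from the other genes named here. The part of free RNA in these folds was not tested. Krt79 stood at 1.06 against 0.813, a ratio of 1.30 (0.997 to 1.72). With 1 in place of 5 added to the CPM, 16 were past 2-fold, 14 higher in the injured library, Krt20 among them, and 2, Krt19 and Krt222, higher in the uninjured one. Krt15 in the uninjured library rested on 3 UMIs. The labels do not say whether skin was taken with the tissue of either limb, and injury, skin in the sample and library cannot be told apart for these genes.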

How the data were processed

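Both libraries were made with a droplet kit that reads 3′ ends, per the labels' protocols. The submitters' processing notes name Cell Ranger 5.0.1 and the mm10 build. The deposited values are raw UMI counts per gene and barcode, not normalized.

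Cells with 500 or more genes, at most 10% mitochondrial UMIs and a Scrublet doublet score of at most 0.2 were kept; the score removed 215 injured and 60 uninjured cells. Counts were scaled to 10000 per cell and logged, and 2000 variable genes were chosen with scanpy 1.11.5, without keratins. Cells were clustered on 30 components and 15 neighbours by the Leiden method of igraph 0.11.9 at a resolution of 0.8. Sub-clusters of the keratinocyte-like cells were made in the same way from 1000 variable genes and 15 components. Clusters were named from 26 marker lists and sub-clusters of the keratinocyte-like cells from 4, with 3 or more markers detected in 10% of cells; 6 of 36 clusters stayed unnamed. In sub-clusters S100a8 and S100a9 were not counted as neutrophil genes, a choice made after seeing the data.

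Raw counts were summed per library and group and given per 1000000 UMIs of the group (CPM), with exact 95% Poisson, binomial (Clopper-Pearson) or conditional ratio intervals from scipy 1.17.1. These cover counting error only, and a count of 0 was set to a limit of 3 UMIs for bounds. With 1 library per limb no test was made. The fold and free RNA steps were also run on simulated data, but the settings and outcome of those runs are not given here. Those runs are therefore not read as a check of the library calls or of the free RNA calls above. The members and lists were chosen with earlier results of these data known. Keratins with 50 or more UMIs over both libraries are named with values and the others given by counts and ranges. From each list of other genes, the 3 most abundant in keratinocyte-like cells and the 2 highest and 2 lowest between states are named. A gene that this rule names is not reported here.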

Additional observations from a re-analysis of the deposited data

How the results depend on the processing

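Libraries were single, so no replicate could be left out. No paired analysis was possible because each limb had 1 library. The count of 27 keratins detected in keratinocyte-like cells, and the count of 9 over 2-fold between states, stayed within 1.5 times their value under every alternative run. Of 12 keratins above the free RNA level, 7 remained with a minimum of 50 UMIs. The 10 keratins over 2-fold between libraries became 16 with 1 CPM added and 1 without keratinocyte-like cells. The type I to type II ratio of 1.68 became 1.61 with more doublets removed, 2.36 as a median over cells, 2.06 in cells with Xist alone and 1.64 in cells with a Y-linked gene alone. It became 1.66, 1.84, 1.65, 1.63, 1.64, 1.78 and 1.66 without sub-clusters 1 to 7 in turn, and 1.65 without sub-clusters 7 and 8. Without sub-cluster 2 the log2 ratio of basal-like over suprabasal-like cells turned to 1.00 for Krt16 and 0.39 for Krt6b. Krt20 in injured vascular endothelial cells stayed between 17.1 and 18.3 CPM. The runs that left out sub-clusters or keratinocyte-like cells were chosen after seeing the data, and the cause of these changes was not tested. In the 17 basal-like cells a gene at 0 may reach 3.32 CPM.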
